A study of Mus musculus with 35 samples.

Results

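The lung holds a little heart muscle of its own, and its genes were followed here in RNA of whole mouse lungs. A set of 34 genes for heart muscle proteins was picked by gene symbol from the 54532 genes of the count table, and each symbol matched 1 gene. The set covers the thick filament (Myh6, Myh7, Myl2, Myl3, Myl4, Myl7, Mybpc3), the thin filament (Actc1, Tnnt2, Tnni3, Tnni1, Tnnc1), titin and the M band (Ttn, Myom1, Myom2), the Z disc and the costamere (Actn2, Myoz2, Ldb3, Csrp3, Tcap, Ankrd1, Smpx, Xirp1, Hspb7), the calcium store (Ryr2, Sln, Pln, Casq2, Trdn), energy and oxygen supply (Ckm, Ckmt2, Mb) and the natriuretic peptides (Nppa, Nppb). All 34 had counts in at least 1 of the 34 libraries that the labels place in a group. The animals were adults of at least 3 months. Control mice were wildtype B6/129SJ2. Cav1-KO mice carried the global caveolin-1 knockout allele Cav1(tm1Mls/)J, and Cav1-RC mice had caveolin-1 put back in endothelial cells alone on that knockout. Females and males of each genotype spent 6 weeks in room air (normoxia) or at 10% oxygen (hypoxia), which gave 12 groups of 3 mice, or of 2 in the normoxic females of Cav1-KO and of Cav1-RC.

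In rodents, heart muscle grows out from the left atrium along the pulmonary veins, so that a lung taken whole brings some of it along. These sleeves contract with the atrium, and their cells are built like atrial cells. They use the atrial light chain Myl7 in place of the ventricular Myl2, and the atrial Myl4 in place of the ventricular Myl3. The adult mouse heart uses the fast alpha myosin heavy chain Myh6 in atrium and ventricle alike, while the slow beta chain Myh7 belongs to the fetal heart and returns under load. In a whole lung, less sleeve muscle in the sample and less RNA per muscle cell cannot be told apart.

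Counts on genes ran from 12425535 to 33343006 per library (median 18015172.5), and the 34 genes together took from 0.0289% to 0.253% of them. CPM is the count of a gene relative to the total of its library, corrected with edgeR's TMM factors, and FPKM, which the authors computed, also divides by gene length. Cav1 stood at 989 to 1356 CPM in the Control libraries, at 1.61 to 4.0 CPM in Cav1-KO and at 1.48 to 6.56 CPM in Cav1-RC, so the reconstituted gene does not show in the counts of mouse Cav1, and whether reads of it would be counted there is not given in the sources used here. The lung markers were strong throughout, with 57284 to 98027 CPM summed over the 10 genes of the lung identity list in the 12 libraries described next and 34344 to 65218 CPM in the other 22. The genes Xist and those of the Y chromosome go against the sex label in 3 libraries, Male Cav1-RC normoxia replicates 1 and 2 and Male Control hypoxia replicate 2, and Female Cav1-KO hypoxia replicate 2 carried a part of a Y signal. By animal number, 12 of the 34 mice are also on the list of the study's western blots, and their libraries stood apart from the other 22 in the heart muscle genes. These 12 are female Control normoxia replicate 1, female Control hypoxia replicate 1, female Cav1-RC normoxia replicate 1, and every library of male Control hypoxia and of Cav1-KO hypoxia of both sexes. The labels give the same batch date to all libraries, and nothing in the sources used here says that these animals were handled differently. Their mitochondrial share of counts was 3.36% to 5.33%, against 1.22% to 2.65% in the others. Comparisons that set listed animals against others are named as such below.

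The heart muscle genes of these lungs were those of atrial rather than ventricular isoforms. Per length, Myl7 was the strongest of the 34 genes, with a median of 122 FPKM (31.6 to 289), followed by Actc1, the cardiac actin, at 79.8 FPKM (22.8 to 173) and Myh6 at 57.8 FPKM (4.83 to 112). The ranges of these neighbours in the order overlap. Myl4, the atrial essential light chain, had a median of 23.6 FPKM, and Sln, sarcolipin, which restrains the calcium pump of atrial cells, 12.5 FPKM. The ventricular light chain Myl2 was the opposite case. It had no count in 22 of the 34 libraries and never more than 6, and its highest level was 0.131 FPKM. Tnni1, the troponin I of the fetal heart and of slow muscle, stayed at or under 0.173 FPKM, while Tnni3, the adult cardiac form, had a median of 21.3 FPKM. Myl3, the ventricular essential light chain, was present at a median of 3.31 FPKM, and Myh7 at 1.94 FPKM. Nppa, the atrial natriuretic peptide and one of the most abundant messages of working atrium, had a median of 0.221 FPKM and no count in 5 libraries.

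**Figure D1:**
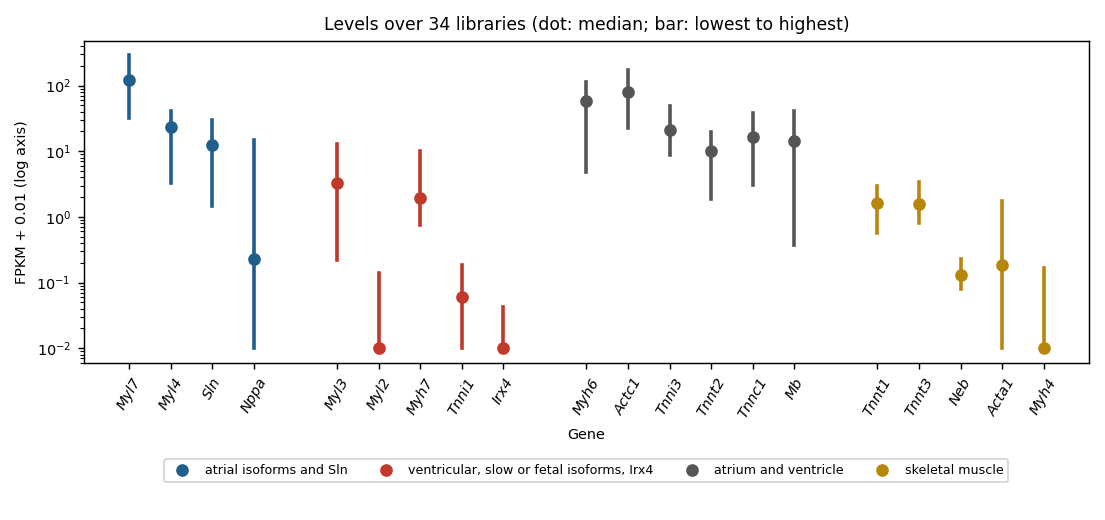
Levels of isoforms in FPKM (log axis, 0.01 added) over the 34 grouped libraries, with the median as a dot and the lowest to highest library as a bar; colours mark atrial genes, ventricular, slow or fetal ones, genes of both chambers, and skeletal muscle genes. The atrial light chain Myl7 reached a median of 122 FPKM, and the ventricular Myl2 never passed 0.131 FPKM.

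Genes of skeletal muscle were present at low levels. The 22 skeletal muscle genes summed to 17.5 to 31.5 CPM (median 22.5), and their sums ran from 17.5 to 29.7 CPM in the listed and from 18.3 to 31.5 CPM in the other libraries, with the troponin T genes Tnnt1 and Tnnt3 and the giant filament gene Neb highest. Myh4 and Tnnc2, the heavy chain and troponin C of fast muscle, had no count in 29 and 27 libraries; they were singled out after their values were seen. Of the other ventricular genes, the transcription factor Irx4 had no count in 33 libraries, and Hey2 and Kcnip2 were present at medians of 6.61 and 1.67 CPM. Hey2 had medians of 11.1 CPM in the listed and 5.71 CPM in the other libraries, and Kcnip2 1.75 and 1.66 CPM. Bmp10, a growth factor of the right atrium, had no count in 33 libraries. Among other atrial genes Kcnj5, a subunit of the acetylcholine-gated potassium channel, had medians of 0.436 CPM in the listed and 4.91 CPM in the other libraries. Dkk3 and Nr2f1 had medians of 133 and 10.2 CPM over all. Their medians were 126 and 10.2 CPM in the listed and 148 and 10.1 CPM in the other libraries. The pacemaker channel gene Hcn4 reached at most 1.30 CPM.

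The heavy chains Myh6 and Myh7 and the peptides Nppa and Nppb are pairs of neighbours on their chromosomes and are followed library by library below, and the 250 bases before their RefSeq starts are shown for that reason. In the count table (mm10) Nppb lies at chr4:147985788-147987205 and Nppa at chr4:148000722-148002079, both on the plus strand, and Myh6 at chr14:54941921-54966927 and Myh7 at chr14:54970684-54994626, both on the minus strand. The windows come from RefSeq on GRCm38.p6, the same build, and read 5′ to 3′ on the strand of the gene. They span chr14:54966608-54966857 for Myh6, chr14:54994627-54994876 for Myh7, chr4:148000472-148000721 for Nppa and chr4:147985650-147985899 for Nppb. The RefSeq starts of Myh6 and Nppb lie downstream of the starts in the count table. Capitals mark, on either strand, the TATA box TATAAA, the GATA motifs TGATAA and AGATAA, the M-CAT motif CATTCC and the CArG box of serum response factor.
Myh6: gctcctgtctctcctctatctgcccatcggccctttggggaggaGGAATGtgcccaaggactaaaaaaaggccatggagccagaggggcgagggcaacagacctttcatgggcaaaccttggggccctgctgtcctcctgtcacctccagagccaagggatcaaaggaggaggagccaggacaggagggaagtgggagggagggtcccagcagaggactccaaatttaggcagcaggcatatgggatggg
Myh7: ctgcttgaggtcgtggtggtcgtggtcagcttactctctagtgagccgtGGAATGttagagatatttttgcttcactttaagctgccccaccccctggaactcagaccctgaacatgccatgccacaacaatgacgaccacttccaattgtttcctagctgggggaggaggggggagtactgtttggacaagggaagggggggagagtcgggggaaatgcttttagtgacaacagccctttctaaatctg
Nppa: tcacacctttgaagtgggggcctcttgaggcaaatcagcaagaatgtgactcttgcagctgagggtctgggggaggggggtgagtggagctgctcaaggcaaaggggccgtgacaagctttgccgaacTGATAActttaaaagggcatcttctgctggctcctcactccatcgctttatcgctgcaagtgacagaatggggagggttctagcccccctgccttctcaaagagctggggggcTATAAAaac
Nppb: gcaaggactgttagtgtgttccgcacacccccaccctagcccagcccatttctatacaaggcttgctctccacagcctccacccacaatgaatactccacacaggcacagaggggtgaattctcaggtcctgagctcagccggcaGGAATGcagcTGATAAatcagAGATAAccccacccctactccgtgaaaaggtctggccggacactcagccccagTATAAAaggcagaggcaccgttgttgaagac
The Nppb window held 4 of these matches, Nppa 2, and Myh6 and Myh7 1 each, the M-CAT motif. That motif was in the windows of 8 of the 29 members with a RefSeq promoter (27.6%) and of 14.4% of all 27025 genes with one, the CArG box in 5 of 29 (17.2%) and 1.62% of all, TGATAA in 5 (17.2%) and 9.21%, AGATAA in 7 (24.1%) and 11.4%, and TATAAA in 4 (13.8%) and 14.3%. No match of the motifs searched overlapped another in the 4 windows. A match is a run of letters and says nothing on binding in these lungs.

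Across single libraries, the levels of most members rose and fell together, and the split that showed was the listed animals against the others. Summed over the 34 genes, CPM ran from 289 to 1175 (median 478) in the 12 listed libraries and from 995 to 2394 (median 1639) in the 22 others. For 7 members every listed library lay below every other library, and how many of all genes did so was not counted. They were Myh6, Mb (myoglobin, the oxygen store of muscle), Myom2 (an M band protein), Actn2 (the actinin of the Z disc), Hspb7 (a small heat shock protein of the sarcomere), Ryr2 (the calcium release channel) and Xirp1 (an actin-binding protein of the cell junctions). The gap was widest in Myh6, with 33.8 to 172 CPM in the listed and 298 to 764 CPM in the other libraries. Mb stood at 0.536 to 12.8 CPM in the listed and 16.5 to 61.3 CPM in the others. The other 27 overlapped between the 2 kinds of library, and Myom1, which links thick filaments in the M band, overlapped nearly throughout, at 17.6 to 43.0 and 22.8 to 54.7 CPM.

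**Figure D2:**
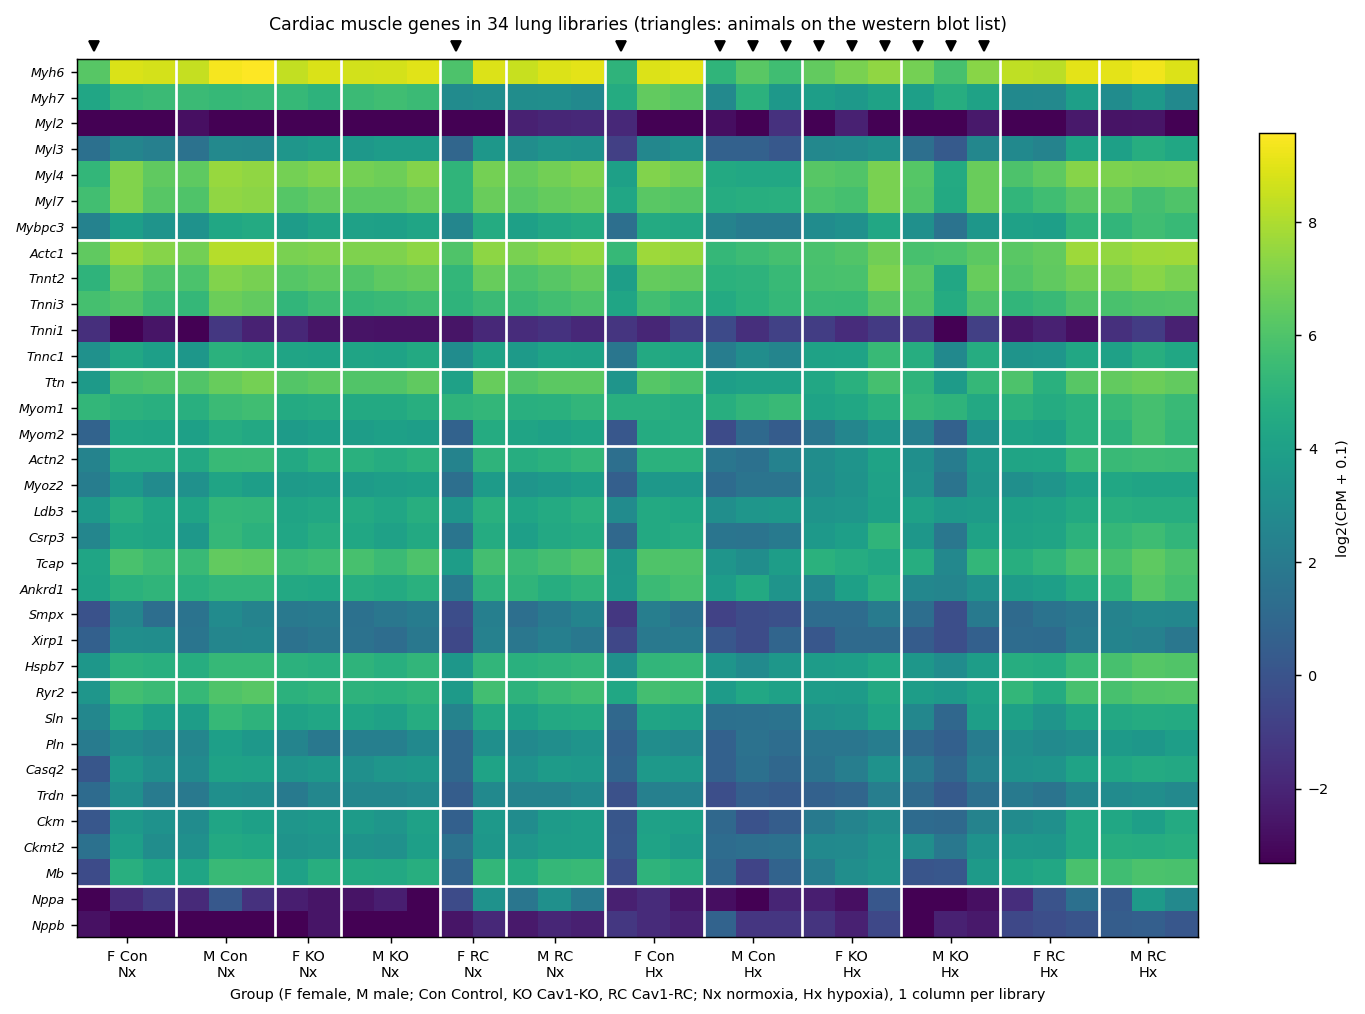
Level of the 34 genes as log2(CPM + 0.1) (colour), 1 row per gene ordered by role and 1 column per library ordered by group, with white lines between groups and roles and triangles over the 12 listed animals. Columns under triangles are darker in most rows, while Myom1 keeps its colour; Nppa is lighter in Cav1-RC, and Myl2 and Tnni1 are dark throughout.

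In 3 groups a single listed animal stood beside others with the same sex, genotype and oxygen, so there the split does not go with the study's conditions. In each of them Myh6 of the listed animal was the lowest. It was 73.8 CPM against 467 and 436 CPM in female Control normoxia, 33.8 CPM against 482 and 521 CPM in female Control hypoxia, and 63.0 CPM against 479 CPM in female Cav1-RC normoxia. On the log2(CPM + 0.5) scale, the listed animal minus the mean of the others was negative for 30, 30 and 33 of the 34 members, with medians of -1.27, -2.39 and -1.95. Averaged over these 3 groups, the gap was deepest in Mb (-4.36), Myom2 (-3.63), Myh6 (-3.13), Ckm (-3.01), the muscle creatine kinase, and Casq2 (-2.77), which binds calcium in the store. It was -1.47 for Myl7, -0.98 for Myh7, -0.53 for Tnni3 and 0.09 for Myom1, so the members did not all differ by the same factor. With 1 listed animal a group these gaps are descriptions without a test, and the part that handling, dissection or the animals' condition has in them was not tested.

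Group by group, Myh6 read as follows. In Control normoxia it was 73.8, 467 and 436 CPM in females and 349, 677 and 764 CPM in males, and in Control hypoxia 33.8, 482 and 521 CPM in females and 34.9, 78.1 and 49.1 CPM in males. In Cav1-KO it was 342 and 462 CPM in normoxic females, 416, 426 and 519 CPM in normoxic males, 88.0, 125 and 172 CPM in hypoxic females, and 118, 56.1 and 154 CPM in hypoxic males. In Cav1-RC it was 63.0 and 479 CPM in normoxic females, 366, 485 and 522 CPM in normoxic males, 321, 298 and 528 CPM in hypoxic females, and 523, 620 and 475 CPM in hypoxic males. The low groups were thus hypoxic male Control and hypoxic Cav1-KO of both sexes, the groups whose mice were all on the list.

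**Figure D3:**
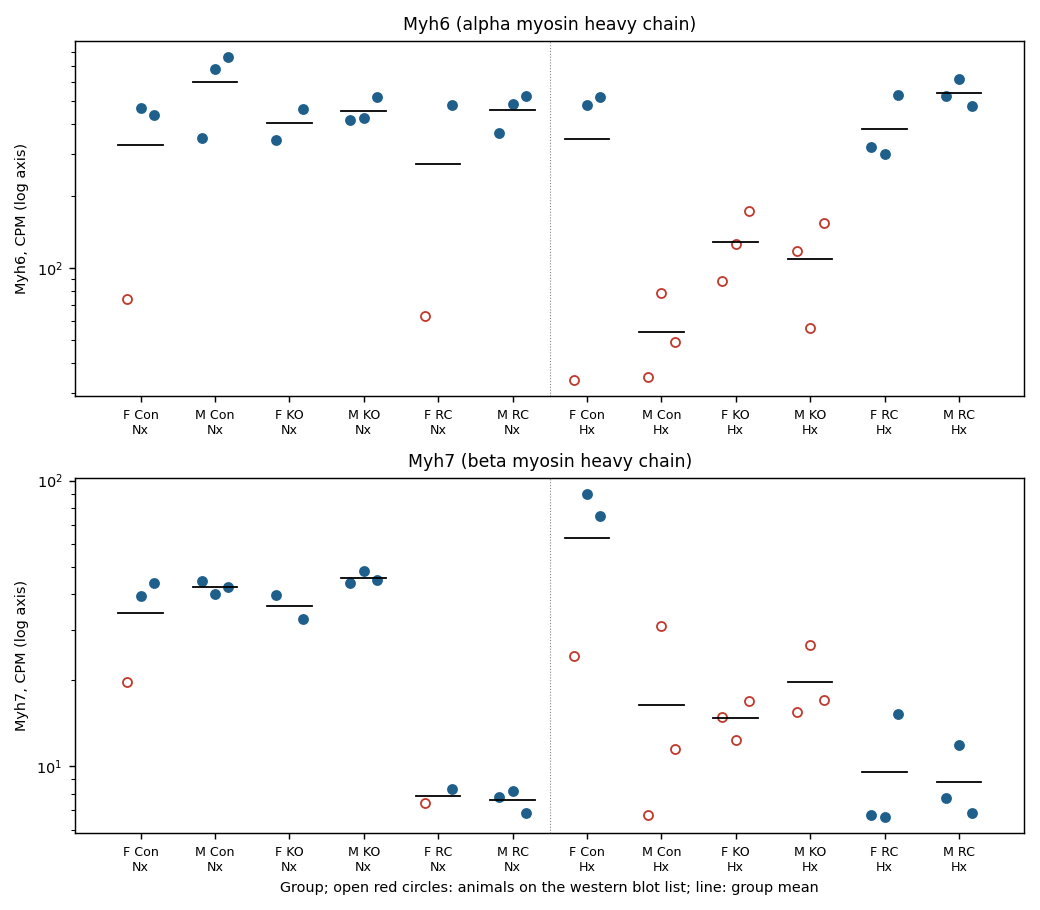
CPM (log axis) of Myh6 (top) and Myh7 (bottom) in each library by group, with open red circles for the 12 listed animals, filled blue circles for the others and a line at the group mean. Myh6 runs from 33.8 to 172 CPM in the listed and from 298 to 764 CPM in the other libraries; Myh7 is at 6.62 to 15.3 CPM in every Cav1-RC library, listed or not.

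The first comparison asks what 6 weeks of hypoxia did in Control lungs. In males, 28 of 30 tested members fell and none rose. Calls needed a log2 fold change beyond 1 in either direction together with an adjusted p below 0.05 (edgeR quasi-likelihood, Benjamini-Hochberg over all genes tested), and 3.93% of all 17853 genes were called lower. Of the genes of other tissues 1 of 4 tested fat genes was called higher (sums of 26.4 to 55.6 CPM in normoxia and 74.3 to 107.7 CPM in hypoxia), as were 1 of 2 cartilage genes (1.25 to 1.64 and 2.68 to 3.62 CPM) and 1 of 2 ventricular genes, and their part in the result was not tested. The median over the members was a log2 fold change of -2.33, and over all genes tested it lay between -0.024 and 0.024 in this and every other comparison. The smallest adjusted p values went to Ttn, the spring that runs from Z disc to M band (-2.55 ± 0.20 (SE), adjusted p = 0.00225), Myom2 (-4.06 ± 0.38, adjusted p = 0.00307) and Mb (-4.60 ± 0.45, adjusted p = 0.00345). Mb was 19.1, 43.2 and 41.5 CPM in normoxia and 1.89, 0.536 and 1.60 CPM in hypoxia, with no overlap. All 9 Z disc and costamere genes, all 5 of the calcium store, all 3 of energy and oxygen supply and all 4 tested thin filament genes were among the 28. Myom1 (-0.21, adjusted p = 0.570) and Myh7 (-1.38, adjusted p = 0.0789) did not pass. The 3 hypoxic mice were all listed and the 3 normoxic ones were not, so hypoxia and the list cannot be told apart here. When all 34 libraries were fitted at once and the list entered as a covariate, 1 member was called. The count was 18 without Male Control hypoxia replicate 1 and 13 without replicate 3. In females, where each oxygen level had 1 listed animal, no member was called by edgeR (0 of 30 at an unadjusted p under 0.05, and 0 by DESeq2), beside 0.0175% of all 17136 genes, and the members' median was 0.03. Myh6 spanned 33.8 to 521 CPM within the 3 hypoxic females.

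In Cav1-KO lungs every member called in hypoxia was called lower, in both sexes. In males 19 of 30 members fell, beside 8.97% of all 17297 genes, with a median of -1.21. Fat genes moved in the same males, with 3 of 4 tested called lower and 1 higher, as did 1 of 2 thymus, 1 of 2 squamous epithelium, 1 of 6 conduction and 1 of 11 skeletal muscle genes called lower, 1 of 10 smooth muscle and 1 of 2 ventricular genes called higher and 3 of 10 lung identity genes, 2 higher and 1 lower, and their part in the result was not tested. Ankrd1, a stretch-responsive repeat protein of the sarcomere, fell by 1.92 ± 0.18 (SE) on the log2 scale (adjusted p = 8.83e-05), from 26.0, 23.7 and 28.8 CPM to 6.15, 5.73 and 9.04 CPM. Ryr2 fell by 1.14 ± 0.14 (adjusted p = 0.000296) and Actc1 by 1.18 ± 0.15 (adjusted p = 0.000314). All 5 calcium store genes were among the 19. Members of the thin filament moved least, with 1 of 4 called and log2 fold changes of -0.33 for Tnnt2, 0.23 for Tnni3 and -0.04 for Tnnc1, none of which passed. Nor did the atrial light chains, at -0.45 for Myl7 and -0.96 for Myl4. In females 6 of 30 fell, beside 7.0% of all 17708 genes, with a median of -0.71. In the same females 3 of 10 lung identity genes and 1 of 4 fat genes were called higher, as was 1 of 10 smooth muscle genes, and 1 of 2 thymus genes, 1 of 6 conduction genes and 2 of 12 skeletal muscle genes lower, and their part in the result was not tested. The 6 members were Myh7 (-1.32 ± 0.17, adjusted p = 0.00189), Myh6 (-1.66 ± 0.28, adjusted p = 0.00465), Mb (-1.51 ± 0.37, adjusted p = 0.0184), Ckm, Actn2 and Ttn. The female count was 12 without Female Cav1-KO hypoxia replicate 3, 3 without replicate 1 or replicate 2, and 3 and 2 without normoxia replicates 1 and 2. All 6 hypoxic knockouts were listed and none of the normoxic ones, and over all libraries 1 member was called in each sex with the list term, and 1 in females and 10 in males without it.

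In Cav1-RC lungs no member fell in hypoxia. No male was listed, and in males 5 of the 30 members tested throughout were called higher and none lower, beside 1.42% of all 17058 genes called higher. Nppb, which entered this test through its hypoxic libraries, made the count 6 of 32. The median was 0.60, and 31 of 32 fold changes were positive. Hspb7 rose by 1.03 ± 0.12 (adjusted p = 0.00315), from 29.3 to 35.9 CPM in normoxia to 57.1 to 73.1 CPM in hypoxia, and Myom2 by 1.22 ± 0.18 (adjusted p = 0.00860). Myl3, Mybpc3 and Csrp3 were the remaining ones, and Nppb is given by its counts below. Fat genes moved with them, with 4 of 4 tested called higher and sums of 19.6 to 37.5 CPM in normoxia and 77.5 to 122 CPM in hypoxia, and their part in the result was not tested. The count over the 32 was 3 without Male Cav1-RC hypoxia replicate 2 or normoxia replicate 1. Normoxia replicates 1 and 2 go against their sex label, and without them 1 normoxic library is left, whose spread is assumed to be that of the hypoxic group, and 0 members were called. In females 0 of 32 were called by edgeR (1 at an unadjusted p under 0.05, and 0 by DESeq2), beside 0.0285% of all 17566 genes, with a median of 0.29, and 1 of the 2 normoxic females was listed.

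Few members differed between Cav1-KO and Control. In normoxic males 1 of 30 members was called, beside 5.0% of all 17439 genes. This was Myl3, which was higher in Cav1-KO by 1.33 ± 0.30 (adjusted p = 0.0281), at 11.5, 13.9 and 14 CPM against 2.78, 6.66 and 6.32 CPM in Control. The count was 5 without Male Control normoxia replicate 1, and 0 without any 1 of the Cav1-KO libraries. Only 3 of the 30 fold changes were positive, with a median of -0.39. In the same males 1 of 4 tested fat genes and 1 of 10 lung identity genes were called lower and 1 of 7 conduction genes higher. Of 11 skeletal muscle genes 1 was called higher and 1 lower, and the part of these genes in the result was not tested. In normoxic females 0 of 30 were called (1 at an unadjusted p under 0.05, and 1 by DESeq2), beside 0.122% of all 17269 genes, and 2 without Female Control normoxia replicate 1. In hypoxia the medians of the sexes had opposite signs, and no member was called within the pairs of groups. In males the median was 0.95 and 26 of 30 members were higher in Cav1-KO, with 0 called (16 at an unadjusted p under 0.05, and 6 by DESeq2) beside 0.929% of all 17759 genes, and all 6 mice were listed. In the same comparison 3 of 4 tested fat genes were called lower in Cav1-KO (sums of 5.15 to 13.7 CPM against 74.3 to 107.7 CPM in Control) and 1 of 2 squamous epithelium genes lower, and their part in the shift was not tested. Without Male Cav1-KO hypoxia replicate 2 the count was 13, without the filter on low counts also 13, and in the fit over all 34 libraries 8 with the list as a covariate and 1 without it. In females the median was -0.46, with 0 of 30 called (2 unadjusted, and 2 by DESeq2) beside 0.768% of all 17699 genes. Here 1 Control and all 3 Cav1-KO mice were listed, and 13 members were called without that Control, Female Control hypoxia replicate 1, and 17 with the list as a covariate over all libraries against 2 without it. For these counts under alternatives, directions and shares over all genes are not given here. The 13 and the 17 thus need not lie on the same side. The difference between the sexes in this effect was tested as an interaction, and 0 of 30 members passed (5 at an unadjusted p under 0.05, and 0 by DESeq2), with 0% of all 18742 genes called, and 17 members called without the same Control library.

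The next comparison asks what endothelial caveolin-1 changes on the knockout. In hypoxic males, 24 of 32 members were higher in Cav1-RC than in Cav1-KO and Myh7 was lower, beside 8.16% of all 17171 genes called higher. Nppa and Nppb entered this test through their Cav1-RC counts, and over the other 30 tested members 23 were called and the median was 1.88. Genes of other tissues moved beside them, with 3 of 4 tested fat genes called higher (sums of 77.5 to 122 CPM in Cav1-RC and 5.15 to 13.7 CPM in Cav1-KO), 2 of 2 tested thymus genes higher (6.25 to 11.1 and 1.96 to 2.48 CPM), 1 of 2 squamous epithelium genes higher, 1 of 10 smooth muscle and 1 of 2 ventricular genes lower, and of 11 skeletal muscle genes 1 higher and 2 lower. Their part in the result was not tested. Ryr2 was higher by 2.12 ± 0.16 (adjusted p = 0.000104), Hspb7 by 2.54 ± 0.21 (adjusted p = 0.000160) and Actc1 by 1.60 ± 0.15 (adjusted p = 0.000223). Ryr2 was 57.2, 67.9 and 69.9 CPM in Cav1-RC and 14.3, 12 and 18 CPM in Cav1-KO, without overlap. The light chain Myl7 (0.04, adjusted p = 0.939) and the troponins Tnni3 (0.30, adjusted p = 0.439) and Tnnc1 (0.13, adjusted p = 0.821) did not pass. In hypoxic females 5 of 32 members were called, each higher in Cav1-RC, beside 5.58% of all 17681 genes. Beside them 1 of 2 tested thymus genes was called higher (sums of 9.93 to 12.3 CPM in Cav1-RC and 2.12 to 4.09 CPM in Cav1-KO), 1 of 10 lung identity genes and 1 of 2 squamous epithelium genes lower, and of 12 skeletal muscle genes 1 higher and 2 lower, and their part in the result was not tested. The 5 members were Myh6 (1.56 ± 0.30, adjusted p = 0.0115), Pln, phospholamban, the brake of the calcium pump (1.13 ± 0.24, adjusted p = 0.0163), Mb (2.07 ± 0.49, adjusted p = 0.0216), Myom2 and Ryr2. The count was 0, 1 and 9 without Female Cav1-KO hypoxia replicates 2, 1 and 3. In both sexes all knockouts and none of the Cav1-RC mice were listed. With the list term the male count was 2 and the female count 12, and Myh6 and Mb in females turned to -1.57 and -2.96. The female minus male difference had a positive estimate in 1 of 32 members, with 0 called (16 at an unadjusted p under 0.05, and 1 by DESeq2) and 0% of all 18237 genes.

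In normoxia, where no male was listed, Myh7 was the 1 member called of the 30 tested throughout. It was lower in male Cav1-RC than in Cav1-KO (-2.59 ± 0.09, adjusted p = 5.41e-08). Nppa, which passed the filter on low counts through its Cav1-RC libraries and had 1, 2 and 0 counts in Cav1-KO, was also called higher, and its counts are given below. This stands beside 3.59% of all 17143 genes called, and the median of the members was 0.06. In the same males 1 of 4 tested fat genes and 1 of 2 thymus genes were called higher and 1 of 11 skeletal muscle genes lower. Their part in the result was not tested. The call of Myh7 was kept without any 1 library and under each alternative tried. In females 0 of 31 were called (3 at an unadjusted p under 0.05, and 2 by DESeq2) beside 0.10% of all 16981 genes. With 2 mice a group, this count was 2 without either knockout or without Female Cav1-RC normoxia replicate 1, and 26 without replicate 2, which leaves the listed Cav1-RC mouse alone.

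Cav1-RC was also set against Control. In normoxic males Myh7 was lower (-2.48 ± 0.11, adjusted p = 1.83e-05) and was the 1 member called of the 30 tested throughout. Nppa again entered through its Cav1-RC libraries and was the other member called, beside 2.45% of all 17647 genes. The count was 1, Myh7, without any Cav1-RC library or without Male Control normoxia replicate 3. In hypoxic males 29 of 32 members were higher in Cav1-RC, with a median of 2.67, beside 5.69% of all 17175 genes called higher, and of the 30 members tested throughout 28 were. In the same comparison 5 of 10 smooth muscle genes were called lower (sums of 728 to 850 CPM in Cav1-RC and 1236 to 1513 CPM in Control) and 2 of 4 tested fat genes and 1 of 10 skeletal muscle genes higher, and their part in the result was not tested. The members were led by Myl4 (2.53 ± 0.08, adjusted p = 1.17e-05), Ttn (2.53 ± 0.11, adjusted p = 1.84e-05) and Ckmt2, the mitochondrial creatine kinase (3.39 ± 0.15, adjusted p = 1.98e-05). Myl4 was 129, 121 and 128 CPM in Cav1-RC and 22.6, 21.3 and 21.1 CPM in Control. The Control mice were all listed, the Cav1-RC mice were not, and with the list term the count was 0. In females 0 of 31 were called in normoxia (2 at an unadjusted p under 0.05, and 2 by DESeq2) beside 0.137% of all 17515 genes. In hypoxia 0 of 31 were called (2 and 1) beside 0.832% of all 17313 genes, and 1 without Female Control hypoxia replicate 1. These comparisons share libraries with those above and are not independent of them.

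**Figure D4:**
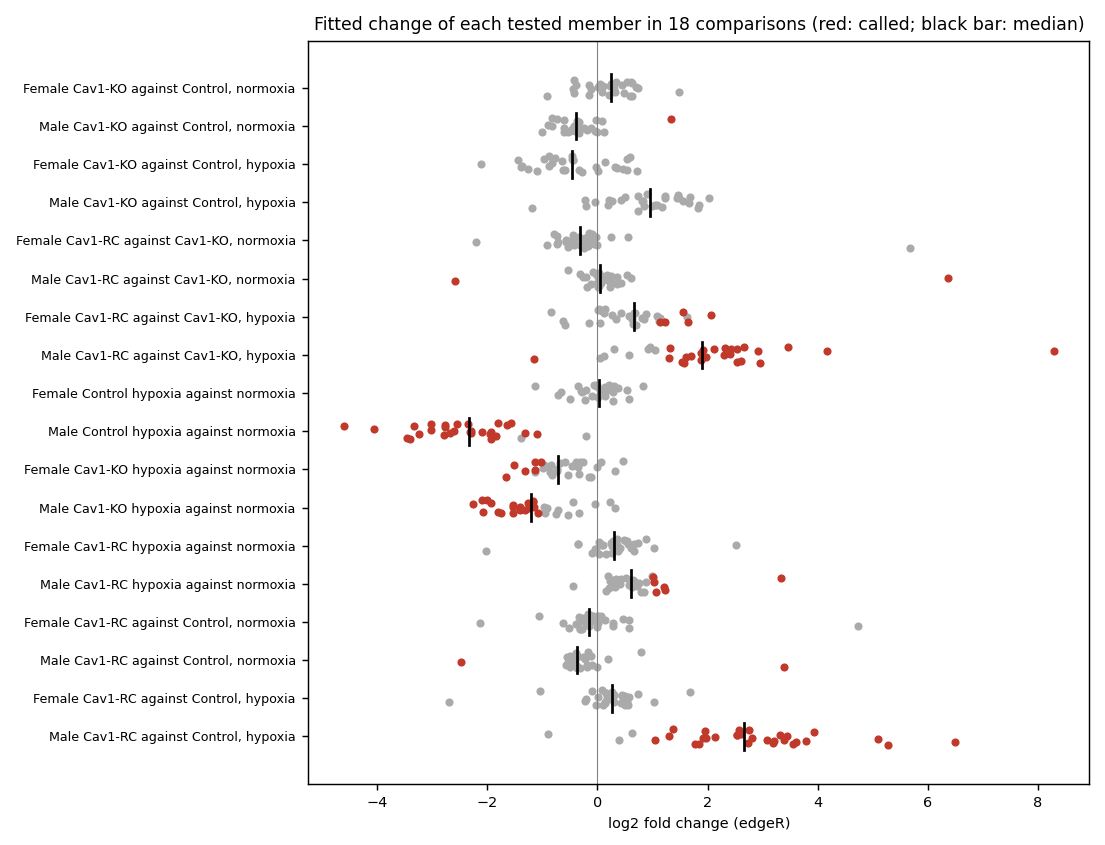
edgeR log2 fold change (x axis) of each tested member in 18 comparisons (rows), with called members in red, the others in grey and the median as a black bar. The medians lie furthest from 0 in hypoxic against normoxic male Control (-2.33), in hypoxic male Cav1-RC against Control (2.67) and against Cav1-KO (1.90), where all mice of 1 group and none of the other were listed, as they also were in hypoxic against normoxic Cav1-KO (-0.71 in females, -1.21 in males) and in hypoxic female Cav1-RC against Cav1-KO (0.66).

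Myh7 went its own way. It was low in every Cav1-RC lung, at 7.45 and 8.34 CPM in normoxic females, 7.79, 8.19 and 6.85 CPM in normoxic males, 6.76, 6.62 and 15.3 CPM in hypoxic females and 7.73, 11.9 and 6.84 CPM in hypoxic males. The listed Cav1-RC female, at 7.45 CPM, was no exception, although her Myh6 was 63.0 CPM against 479 CPM in her group mate. Normoxic Cav1-KO lungs held 39.9 and 32.7 CPM in females and 43.8, 48.4 and 44.7 CPM in males. Control males in normoxia held 44.5, 40.2 and 42.3 CPM, and Control females 19.8, 39.5 and 43.8 CPM. The highest values were the unlisted hypoxic Control females, 89.8 and 75.0 CPM, beside 24.3 CPM in the listed one. The listed hypoxic males of Control had 6.72, 30.9 and 11.5 CPM, and the hypoxic knockouts 12.4 to 26.6 CPM. The fold of beta over alpha chain, in FPKM with 0.1 added, had a median of 0.0160 in Cav1-RC (0.0115 to 0.102, n = 11), 0.0901 in Cav1-KO (0.0566 to 0.377, n = 11) and 0.129 in Control (0.0441 to 0.570, n = 12). Of the Cav1-RC lungs, only the listed one, at 0.102, reached into the range of the other genotypes.

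Of the natriuretic peptides, Nppa was highest in Cav1-RC lungs, and Nppb was highest in a Control. Both are hormones of the heart that relax vessels and lower blood volume, and both rise when atrium or ventricle is stretched. Nppa had 19, 204 and 101 counts in hypoxic and 78, 163 and 63 counts in normoxic Cav1-RC males, which is 1.18, 13.0 and 6.58 CPM and 3.25, 8.84 and 3.75 CPM. Cav1-RC females had 0.672 and 9.46 CPM in normoxia and 0.221, 0.875 and 2.57 CPM in hypoxia. In the 11 knockouts Nppa ran from 0 to 1.03 CPM and in the 12 Controls from 0 to 1.09 CPM, so that 1 normoxic and 2 hypoxic Cav1-RC females lay within the range of the other genotypes. Summed over libraries, normoxic males had 304 counts in Cav1-RC and 3 in Cav1-KO, a ratio of 89.5 per total count (95% exact interval 30.3 to 436, counting error only), and 30 in Control, a ratio of 10.3 (7.05 to 15.5). Of the 30 in Control, 20 came from Male Control normoxia replicate 2. Hypoxic males had 1 count in Cav1-KO and 4 in Control, and hypoxic females 76 in Cav1-RC, 26 in Cav1-KO and 10 in Control. In these females, replicate 3 alone gave 59 of the 76 in Cav1-RC and replicate 3 gave 23 of the 26 in Cav1-KO. Since Nppa entered the fits through its Cav1-RC counts, its adjusted p values are not given.

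Within Cav1-RC, Nppb was higher in every hypoxic than in every normoxic lung. It was 0.588, 0.750 and 0.915 CPM in hypoxic females and 1.30, 1.40 and 1.04 CPM in hypoxic males, against 0.0672 and 0.177 CPM and 0.0834, 0.163 and 0.119 CPM in normoxia, without overlap in either sex. A count of 0 allows up to 3 counts, which is 0.0900 to 0.241 CPM in these libraries, so the normoxic values are at or near what the depth can show. The counts in Cav1-RC were 59 in hypoxic and 7 in normoxic males, and 41 and 4 in females. Since Nppb entered the fits through its hypoxic libraries, its adjusted p values are not given. In hypoxic males the ratio of Cav1-RC to Control was 1.44 (95% exact interval 0.971 to 2.13). Nppb was at 0 in all 6 normoxic males of Control and Cav1-KO and had 51 counts in hypoxic Control males, of which 41 came from 1 mouse. In that mouse, Male Control hypoxia replicate 1, Nppb was 1.65 CPM at a Myh6 of 34.9 CPM.

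**Figure D5:**
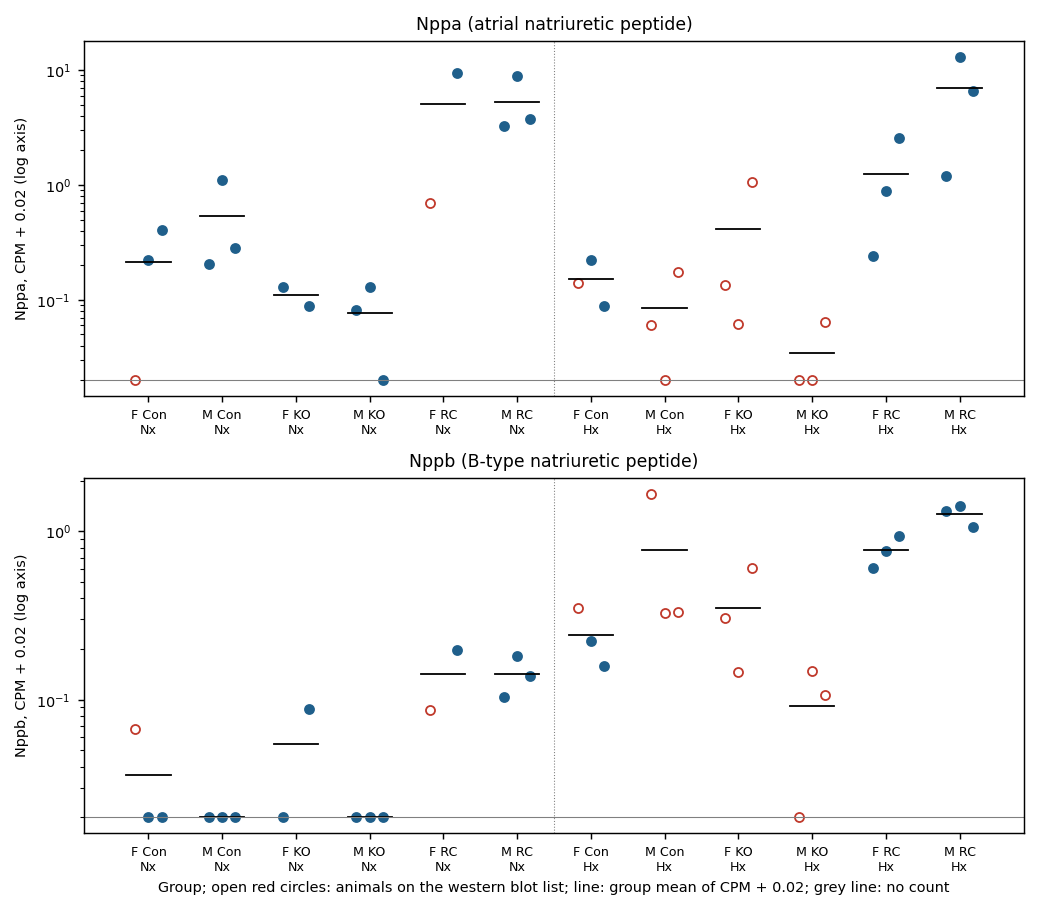
CPM with 0.02 added (log axis) of Nppa (top) and Nppb (bottom) in each library by group, with open red circles for the 12 listed animals, a line at the group mean and a grey line where no read was counted. Nppa is highest in Cav1-RC, up to 13.0 CPM, at either oxygen level; Nppb is at 0.588 to 1.40 CPM in hypoxic and at 0.0672 to 0.177 CPM in normoxic Cav1-RC.

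Isoform ratios were tested between oxygen levels with the sexes pooled, as log2 ratios of FPKM plus 0.1, by exact two-sided permutation tests adjusted over 9 tests. The log2 ratio of Myh7 over Myh6 in Control was -2.22 ± 0.85 (SD, n = 6) in hypoxia and -3.66 ± 0.84 (SD, n = 6) in normoxia (exact permutation p = 0.0173, adjusted 0.0584). Of these mice 4 hypoxic and 1 normoxic were listed, with ratios of -0.81, -1.67, -2.37 and -2.58 in hypoxia and -2.21 in normoxia, each above the unlisted mice of the same oxygen level, at most -2.77 and -3.30. In Cav1-KO it was -3.03 ± 0.85 (SD, n = 6) and -3.70 ± 0.30 (SD, n = 5) (exact permutation p = 0.0996, adjusted 0.203), and in Cav1-RC -5.90 ± 0.36 (SD, n = 6) and -5.53 ± 1.27 (SD, n = 5) (exact permutation p = 0.719, adjusted 0.719). Of the 9 tests 1 passed after adjustment, Nppa over Myh6 in Cav1-KO, which was -6.36 in hypoxia and -8.51 in normoxia (exact permutation p = 0.00433, adjusted 0.0390). The Nppa side of that ratio rests on 26 counts in female and 1 in male hypoxic libraries and 3 in each sex in normoxia, and Myh6 was lower in the hypoxic ones, which were all listed. Of the 26 counts, 23 came from Female Cav1-KO hypoxia replicate 3. With a pseudocount of 0.01 FPKM the adjusted p was 0.276. For Myl2 over Myl7 the ratio rests on at most 6 counts of Myl2 in a library, and 0 of its 3 tests passed.

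Myl3 relative to Myh6 was another ratio by which the genotypes differed in level. The FPKM ratio had a median of 0.107 in Cav1-KO (0.0751 to 0.242), 0.0780 in Cav1-RC (0.0605 to 0.143) and 0.0485 in Control (0.0281 to 0.157). In normoxia the 5 knockouts lay between 0.0896 and 0.109, above 5 of the 6 Controls, the exception being the listed Control female at 0.124. This ratio was chosen after its values were seen and carries no test.

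Within each kind of library, members tracked Myh6 to different degrees. Since Myh6 itself falls into 2 separate ranges, correlations of log2 CPM were computed within the 12 listed and within the 22 other libraries, for 32 members each, with 100000 permutations and adjustment over the 32. The libraries share groups and scaling factors, so these are descriptions of the samples at hand. Among the 22, Pearson's r had a median of 0.71 (-0.01 to 0.93) and Spearman's rho a median of 0.74 (0.13 to 0.88), and by either measure 27 members passed an adjusted permutation p of 0.05. Among the 12, the medians were 0.84 and 0.85, and 24 passed by r and 22 by rho. How many of all genes would pass was not counted, so these counts do not set the members apart from other genes. The smallest permutation p was 1e-05, which is the smallest these permutations can give. Without the 2 libraries whose Myh6 was farthest from the median, the median r was 0.71 among the 22 and 0.77 among the 12. Closest to Myh6 among the listed were Myom2 (r = 0.97, rho = 0.99) and Tnnc1, cardiac troponin C (r = 0.97, rho = 0.97). Among the others they were Actc1 (r = 0.93, rho = 0.88) and Tcap, which caps titin at the Z disc (r = 0.91, rho = 0.87). Myh7 followed Myh6 in neither (rho = 0.08, permutation p = 0.799, and rho = 0.13, permutation p = 0.574). Myom1 had a rho of -0.24 (permutation p = 0.442) among the 12 and 0.65 (permutation p = 0.00153) among the 22, and Ryr2 0.31 (permutation p = 0.320) and 0.80 (permutation p = 5e-05); whether these differ between the 2 kinds was not tested.

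Other genes of the heart muscle cell were mostly called on the same side as the members where many members were. Of 36 tested genes on a list of further cardiomyocyte genes, 26 fell in hypoxic male Control, 15 fell in hypoxic male Cav1-KO, 23 were higher in hypoxic male Cav1-RC than in Cav1-KO and 25 than in Control, and none was called on the other side in these 4 comparisons. In hypoxic female Cav1-KO 10 fell and 1 rose. The strongest of that list, the calcium pump gene Atp2a2, had a median of 208 CPM in the listed and 535 CPM in the other libraries, whereas the filament gene Des and the chaperone gene Cryab, both also expressed in other muscle, had 179.7 and 245 CPM in the listed and 144 and 209.7 CPM in the others. Of the cardiac transcription factors Tbx20 had medians of 0.455 and 6.89 CPM and Nkx2-5 0.341 and 1.25 CPM, and the list, which includes the widely expressed Mef2a, Srf and Tbx5, summed to 222.96 to 312 CPM in the listed and 326.5 to 447 CPM in the other libraries. The 10 smooth muscle genes, headed by Mylk, Myh11 and Acta2, summed to 802 to 1513 CPM in the listed and 722 to 1329 CPM in the others, and none was called in hypoxic against normoxic male Control and 1 higher in Cav1-KO, besides the calls in hypoxic males given above. Fat genes, which mark tissue taken along with the lung, summed to 5.15 to 162 CPM in the listed and 19.6 to 122 CPM in the others, and in male Cav1-KO they stood at 29.8 to 33.5 CPM in normoxia and 5.15 to 13.7 CPM in hypoxia, with 3 of 4 tested genes called lower and 1 higher. Thymus genes summed to 1.96 to 7.74 CPM in the listed and 4.69 to 12.3 CPM in the other libraries, cartilage genes to 0.811 to 5.72 CPM and squamous epithelium genes to 0.441 to 19.4 CPM over all libraries, and conduction system genes, with Tbx3 and Cacna1d highest, to 127 to 262 CPM. The muscle caveolin gene Cav3 was at 1.66 to 5.39 CPM in all groups. The part of tissue taken along with the lung in the levels of the heart muscle genes was not tested.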

How the data were processed

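RNA of whole lungs was sequenced in 35 libraries, of which 34 were grouped by their labels and 1, labelled as uncertain, entered no comparison. The authors mapped read pairs to mm10 with HISAT2 2.0.5 and deposited raw counts per gene from featureCounts 1.5.0-p3. The authors also deposited FPKM computed from these counts, used here for levels between genes and for ratios (log2 of FPKM plus 0.1). Reads shared by near-identical or overlapping genes can be lost or split in such counts. The study made directional libraries, ran featureCounts at its defaults and names no strand setting.

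Counts were filtered with filterByExpr and tested with edgeR 4.0.16 (glmQLFit and glmQLFTest, TMM factors, R 4.3.3) within the 2 groups compared, with Benjamini-Hochberg adjustment over all genes tested. Errors of fold changes are the fold change over the root of its F statistic. Interactions were called on the adjusted p alone. The filter kept 30 to 32 members. Myl2 and Tnni1 never passed, and Nppa and Nppb passed in some comparisons through their Cav1-RC libraries. The scripts were tested on simulated data. Alternatives were DESeq2 1.42.0, no filter, no fold threshold, fits over all 34 libraries with and without the list, a replicate block and each library left out. The comparisons of Cav1-RC with Control were added after the data were seen. Listed animals were found by matching library names to animal numbers in the study's blot records.

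The members and all lists were chosen with earlier results of these data known. Named genes are the members by range, 1 or more per role by library, up to 3 called members with the smallest adjusted p per direction, and up to 3 genes of each other list with the highest median. Myl3 by library, Myom1, the remaining called or uncalled members given by name, Acta1, Myh4, Tnnc2, Bmp10, Hcn4, Des, Tbx20 and Nkx2-5 were named after their values were seen. By its animal number each library is 1 mouse, and p-values measure the spread between mice of a group. Intervals and limits from counts cover counting error only.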

Additional observations from a re-analysis of the deposited data

Results flagged for a closer look

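In males, 5 members rose in hypoxia in every Cav1-RC library relative to normoxia while they were lower in Control. The log2 fold change in male Cav1-RC minus that in male Control was 3.15 for Myl3, 3.01 for Mybpc3, the myosin-binding protein C of the heart, 5.28 for Myom2, 4.03 for Csrp3, a muscle LIM protein of the Z disc, and 2.88 for Hspb7. Against male Cav1-KO it was 3.22 for Myl3, 2.23 for Mybpc3, 2.76 for Myom2 and 2.57 for Hspb7. The members were picked by these same values, as called in opposite directions without overlap of libraries. How many of all genes meet that rule was not counted, and the differences were not tested. The hypoxic Control and Cav1-KO males were all on the western blot list and the other libraries were not, so genotype and list cannot be told apart here.

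Among the log2 ratios of Myh7 over Myh6, 2 samples lay far from the others of their group. Male Cav1-KO hypoxia replicate 2 was at -1.41 among the hypoxic knockouts, and the listed Female Cav1-RC normoxia replicate 1 at -3.29 among normoxic Cav1-RC lungs. Both had low Myh6, at 56.1 and 63.0 CPM, and Myh7 of 26.6 and 7.45 CPM. Over 18 groups examined in this way, chance marks about 1 in 20.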

How the results depend on the processing

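Counts of called members (edgeR as reported first) moved with the blot list term in 1 fit over all 34 libraries, an alternative that changes both the fit and the term. With it, males went from 28 to 1 in hypoxic Control, from 19 to 1 in hypoxic Cav1-KO, from 25 to 2 in Cav1-RC against Cav1-KO in hypoxia and from 29 to 0 in Cav1-RC against Control in hypoxia, and hypoxic against normoxic male Cav1-RC from 6 to 2. Females went from 6 to 1 in hypoxic Cav1-KO, from 5 to 12 in Cav1-RC against Cav1-KO in hypoxia, and from 0 to 17 in Cav1-KO against Control in hypoxia, where males went from 0 to 8. In normoxia it gave 1 (female) and 0 (male) for Cav1-KO against Control, 1 for female Cav1-RC against Cav1-KO and 2 for female Cav1-RC against Control, and it gave 1 for hypoxic female Control and 2 for female Cav1-RC against Control in hypoxia. It turned the log2 fold change of Mb to 0.46 in hypoxic male Control, of Myh6 and Mb to 1.47 and 3.53 in hypoxic female Cav1-KO, of Ryr2 and Actc1 to 0.61 and 0.37 in hypoxic male Cav1-KO, and of Myh6, Pln and Mb to -1.57, -0.56 and -2.96 in female Cav1-RC against Cav1-KO in hypoxia. The same fit without the term gave 0 for male Cav1-KO against Control in normoxia, 2 (female) and 1 (male) in hypoxia, 1 for female Cav1-RC against Cav1-KO at either oxygen level, 1 and 10 for hypoxic female and male Cav1-KO, 0 for hypoxic male Cav1-RC, and 2 (female normoxia), 1 (male normoxia) and 1 (female hypoxia) for Cav1-RC against Control. DESeq2 gave 1 and 2 for female and male Cav1-KO against Control in normoxia, 2 and 6 in hypoxia, 2 and 8 for female Cav1-RC against Cav1-KO in normoxia and hypoxia, 2 and 1 for female Cav1-RC against Control, and 1 for the sex difference of Cav1-RC against Cav1-KO. Without the low-count filter the same comparisons gave 1, 2, 2, 13, 2, 8, 2, 1 and 7, hypoxic female Cav1-RC gave 1, and the sex difference of Cav1-KO against Control 1. Without the fold threshold, male Cav1-KO against Control in normoxia gave 2, hypoxic female Cav1-KO 10 and hypoxic male Cav1-RC 14. Without the libraries that go against their sex label, hypoxic male Cav1-RC gave 0 and male Cav1-RC against Control in normoxia 1. The replicate numbers were not taken as pairs, since in no comparison with 3 pairs were all correlations over 0.1. In female Cav1-RC against Control in normoxia, with 2 pairs, they were 0.57 and 0.19, and both mice of the first pair were listed. A replicate block gave 1 for female Cav1-KO against Control in normoxia, 2 and 8 for female Cav1-RC against Cav1-KO in normoxia and hypoxia, 13 and 1 for hypoxic female Cav1-KO and Cav1-RC, and 2 and 1 for female Cav1-RC against Control. With 1 library left out, female and male counts ran from 0 to 2 and 0 to 5 for Cav1-KO against Control in normoxia, 0 to 13 and 0 to 13 in hypoxia, 2 to 26 and 2 to 2 for Cav1-RC against Cav1-KO in normoxia, 0 to 9 and 21 to 27 in hypoxia, 2 to 12 and 13 to 22 in hypoxic Cav1-KO, 0 to 0 and 13 to 28 in hypoxic Control, 0 to 0 and 3 to 8 in hypoxic Cav1-RC, 0 to 0 and 1 to 2 for Cav1-RC against Control in normoxia and 0 to 1 and 29 to 29 in hypoxia, and 0 to 17 for the sex difference of Cav1-KO against Control. The log2 ratio of Myh7 over Myh6, hypoxia minus normoxia, was 1.51 in Control and 0.90 in Cav1-KO with a pseudocount of 1 FPKM, past an adjusted p of 0.05, and 0.20 in Cav1-RC among unlisted libraries, and with 1 library left out it ran from 1.15 to 1.73, 0.34 to 0.79 and -0.59 to 0.20. Myl2 over Myl7 was 1.52 in Control with 1 FPKM and -0.39 in Cav1-RC with 0.01 FPKM, and ran from 1.55 to 2.14, 0.36 to 0.86 and -0.11 to 0.27. Nppa over Myh6 in Cav1-KO was 1.84 with 0.01 FPKM, no longer past it, and the 3 genotypes ran from 0.53 to 1.40, 1.75 to 2.37 and -1.82 to -0.93. The causes of these moves were not tested. Of all gene values under alternatives, 309 kept direction and call, 44 lost the call and 8 turned. Depth limits Myl2, with at most 6 counts in a grouped library, Nppb in normoxia, with at most 3, and Tnni1 and Nppa in many libraries, against a limit of 3 counts.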

Other observations

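The library that the labels mark as uncertain had 30930450 counts. Its animal is also on the western blot list, its mitochondrial share was 5.05%, and its levels were 105 CPM for Myh6, 14.9 CPM for Myh7, 5.40 CPM for Mb and 0.247 CPM for Nppa. Myl2 had 7 counts there, more than in any grouped library.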
